A study of Mus musculus with 3 samples.

Results

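The Notch pathway was examined in SB28, a mouse glioblastoma model line. The genes were chosen by symbol and cover the receptors, the ligands, the enzymes that modify and cut the receptors, the nuclear complex, the HES and HEY repressors, and inhibitors of the pathway. All 36 were found among the 24421 gene lines of the count tables. The samples form 1 group of 3 RNA-seq libraries, labelled SB28 replicates 1, 2 and 3, with source brain and genetic background C57BL/6. SB28 is a single transplantable line grown out from a brain tumour that oncogenes delivered by a transposon had induced. No untreated, normal or treated group accompanies it in the labels, so the comparisons open to these data are between genes inside the line and between its libraries.

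Notch receptors are single-pass membrane proteins. A ligand of the Delta or Jagged type on a neighbouring cell pulls on the receptor, an ADAM protease then sheds its outer part, and the gamma-secretase complex cuts within the membrane. The freed intracellular domain enters the nucleus, where it joins the DNA-binding protein RBPJ and a Mastermind coactivator and switches on genes that include the HES and HEY repressors. In the developing brain the pathway holds neural stem cells undifferentiated through HES1 and HES5, which repress proneural genes, and in vessels it shapes endothelial and mural cells.

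The libraries held 36019009, 28990128 and 32632858 counts assigned to genes. Levels are given as counts per 1000000 counts in genes (CPM) for 1 gene over libraries, and as CPM per kilobase of union exon (CPM per kb) where genes are compared. Detection required at least 1 CPM in each of the 3 libraries. Values for 3 libraries follow the order of replicates 1, 2 and 3, and errors are SD with n = 3. The labels do not state whether the replicates were separate cultures, so the spread may be technical and the tests speak for these libraries only. A ratio between genes is called larger than the spread when every library had the same sign and the mean log2 ratio exceeded 2 SD. Replicate 3 stood apart: between replicates 1 and 2, 2.01% of 12746 genes differed beyond counting noise, against 64.0% between 1 and 3 and 62.9% between 2 and 3.

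Of the 36 genes, 23 (63.9%) were detected, 2 were detected in some libraries only, and 11 lay below 1 CPM in all, 4 of them with no count. Over all gene lines 46.6% were detected. The detected Notch genes had a median of 8.84 CPM per kb, beside 7.57 over all detected genes. The plot of CPM by library shows that the roles differed: all 6 genes for cutting the receptor and all 4 of the nuclear complex were detected, and 3 of 4 inhibitors, beside 2 of 4 receptors, 3 of 6 ligands, 2 of 3 fringe enzymes and 3 of 9 HES and HEY repressors.

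**Figure D1:**
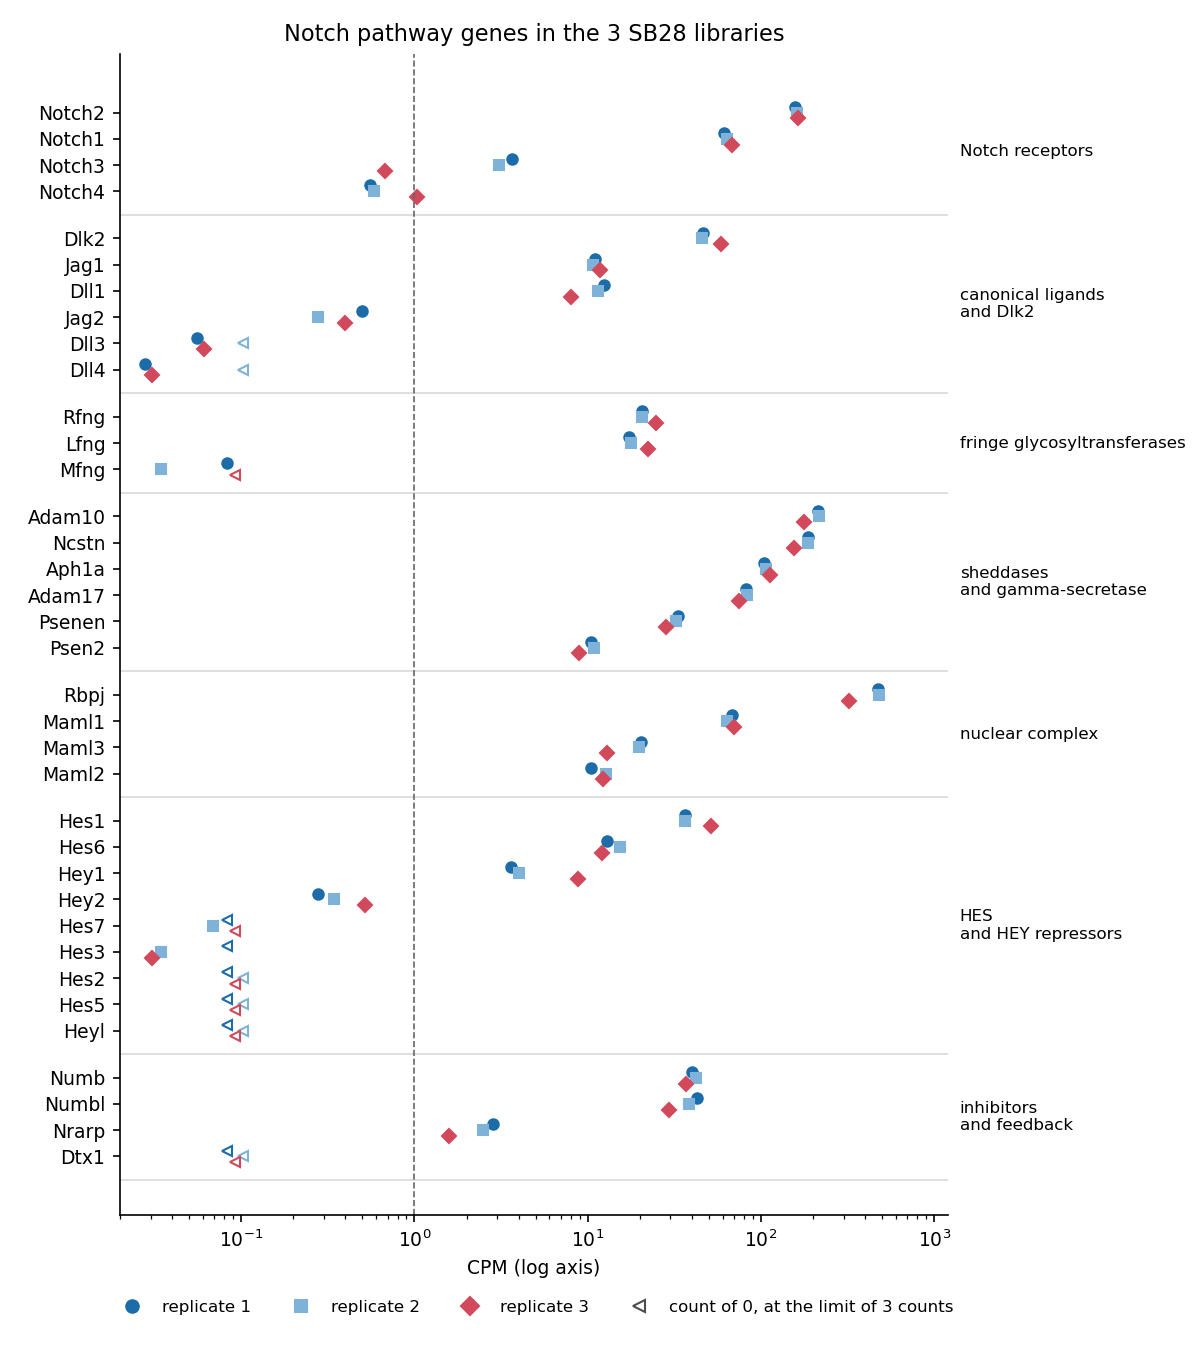
CPM of the 36 Notch pathway genes on a log axis, grouped by role, with 1 point per library. Open triangles mark a count of 0, drawn at the limit of 3 counts, and the dashed line is 1 CPM. Rbpj reached 473, 478 and 321 CPM, while Hes2, Hes5, Heyl and Dtx1 had 0 counts in all 3 libraries.

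Promoter sequence, 250 bases before to 50 after the RefSeq start (GRCm38.p6), was available for 30 of the genes, and starts with different positions gave 39 promoters. Hes1, Hey1, Heyl, Hes2, Hes3 and Mfng were not searched. The letters GTGGGAA, a core that RBPJ binds, were searched on both strands, so that TTCCCAC on the printed strand also counts. Of all 32851 promoters of the same length, 6.38% held a match and 0.256% held 2 or more. Among the Notch genes, 6 of 30 (20%) had a match in at least 1 promoter, beside 7.25% of 27025 genes counted the same way: Hes5, Hey2, Hes7, Lfng, Aph1a and Psen2. The sequences below set 3 of these against Hes6 and Nrarp, which were detected and had no match. They are printed on the gene's own strand, 5′ to 3′, with matches in capitals. Hes5, Hey2 and Lfng were picked after their matches and levels had been seen.
Hes5 (chr4:154960673-154960972, plus strand): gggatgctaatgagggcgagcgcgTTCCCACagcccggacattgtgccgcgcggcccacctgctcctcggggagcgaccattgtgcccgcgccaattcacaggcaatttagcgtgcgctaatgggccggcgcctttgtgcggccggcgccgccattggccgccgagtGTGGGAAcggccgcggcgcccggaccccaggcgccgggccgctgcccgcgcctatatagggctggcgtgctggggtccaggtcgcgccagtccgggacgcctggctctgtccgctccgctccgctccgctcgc
Hey2 (chr10:30842734-30843033, minus strand): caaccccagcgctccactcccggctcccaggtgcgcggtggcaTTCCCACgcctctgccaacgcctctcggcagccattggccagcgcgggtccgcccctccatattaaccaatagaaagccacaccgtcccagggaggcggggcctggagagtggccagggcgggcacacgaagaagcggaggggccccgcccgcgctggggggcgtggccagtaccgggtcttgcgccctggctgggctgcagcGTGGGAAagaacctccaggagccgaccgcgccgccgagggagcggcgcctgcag
Lfng (chr5:140607091-140607390, plus strand): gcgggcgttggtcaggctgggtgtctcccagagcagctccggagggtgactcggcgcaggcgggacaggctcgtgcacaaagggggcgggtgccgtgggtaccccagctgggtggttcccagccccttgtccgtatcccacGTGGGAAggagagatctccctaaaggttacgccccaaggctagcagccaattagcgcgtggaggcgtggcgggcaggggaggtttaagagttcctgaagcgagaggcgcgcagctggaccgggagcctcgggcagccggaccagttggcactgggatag
Hes6, start 1 (chr1:91413173-91413472, minus strand): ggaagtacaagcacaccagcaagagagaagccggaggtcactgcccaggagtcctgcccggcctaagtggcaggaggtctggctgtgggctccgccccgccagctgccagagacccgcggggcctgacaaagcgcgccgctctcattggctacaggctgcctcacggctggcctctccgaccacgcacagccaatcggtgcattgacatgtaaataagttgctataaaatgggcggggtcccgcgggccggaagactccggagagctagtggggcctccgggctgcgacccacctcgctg
Hes6, start 2 (chr1:91413989-91414288, minus strand): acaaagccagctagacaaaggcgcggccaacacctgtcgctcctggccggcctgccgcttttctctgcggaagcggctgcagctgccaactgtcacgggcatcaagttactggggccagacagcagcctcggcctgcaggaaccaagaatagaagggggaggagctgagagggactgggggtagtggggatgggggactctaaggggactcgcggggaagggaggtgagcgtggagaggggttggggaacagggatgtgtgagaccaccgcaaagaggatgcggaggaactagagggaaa
Nrarp (chr2:25180508-25180807, plus strand): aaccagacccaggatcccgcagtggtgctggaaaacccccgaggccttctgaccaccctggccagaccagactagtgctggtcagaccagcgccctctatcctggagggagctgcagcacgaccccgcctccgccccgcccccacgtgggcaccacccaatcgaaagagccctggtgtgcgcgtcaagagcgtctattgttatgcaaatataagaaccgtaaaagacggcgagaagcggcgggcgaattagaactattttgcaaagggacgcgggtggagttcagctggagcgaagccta
In Hes5 the matches lay at -226 to -220 and -83 to -77 relative to the start, the first on the opposite strand and the second on the gene's strand, so that they pointed away from each other. Hey2 had a match at -207 to -201 and another that crossed the start, from -4 to 3. Lfng had 1, at -109 to -103. The Hes6 and Nrarp windows held none. The letters CACGCG, a class of site that HES proteins bind, were also searched on both strands. They occurred in 10 of the 30 Notch genes, among them Lfng, Jag1, Dll1 and Notch2, beside 10.5% of 27025 genes counted the same way. No match of one kind overlapped one of the other. Of the genes with GTGGGAA, Hes5 had 0 counts and Hey2 and Hes7 lay below 1 CPM, while Lfng, Aph1a and Psen2 were detected. A match of letters is a description of the sequence and not a binding site.

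Notch2 and Notch1 made up nearly all receptor transcripts. Notch2 (chromosome 3, 98013527 to 98150361 in GRCm38) stood at 157, 162 and 164 CPM and Notch1 (chromosome 2, 26457903 to 26516663) at 61.5, 63.7 and 67.9 CPM. The libraries of each gene lay close together and the genes did not overlap. Per base, Notch2 lay 3.30-fold above Notch1 (3.19 to 3.36 in single libraries), a difference larger than the replicate spread, at 14.9 ± 0.345 CPM per kb for Notch2 and 4.52 ± 0.228 for Notch1. Among detected genes these levels sat at percentile 69.7 for Notch2 and 35.5 for Notch1. The size of the ratio depends on the length used: it was 2.5-fold without length. With the longest transcript the log2 ratio was 1.17, against 1.72. For Notch1 the union of exons (14232 bases) is longer than the longest transcript (9488 bases).

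Notch3, the receptor of vascular mural cells, was low and uneven. It stood at 3.66, 3.07 and 0.674 CPM, so that replicate 3 fell below 1 CPM while the other two did not. It lay 18.4-fold below Notch1 (32.4-fold without length) and 60.7-fold below Notch2 per base. The size of both ratios depends on replicate 3: the log2 ratio to Notch1 was -4.20 with it and -3.40 without it, and that to Notch2 -5.92 with it and -5.15 without it. Notch4, an endothelial receptor, was at 0.555, 0.586 and 1.04 CPM, 51.1-fold below Notch1 per base and 90.2-fold without length. As shares of the receptor total per base, Notch2 held 75.2 ± 0.163%, Notch1 22.8 ± 0.724%, Notch3 1.55 ± 1.01% and Notch4 0.454 ± 0.162%.

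**Figure D2:**
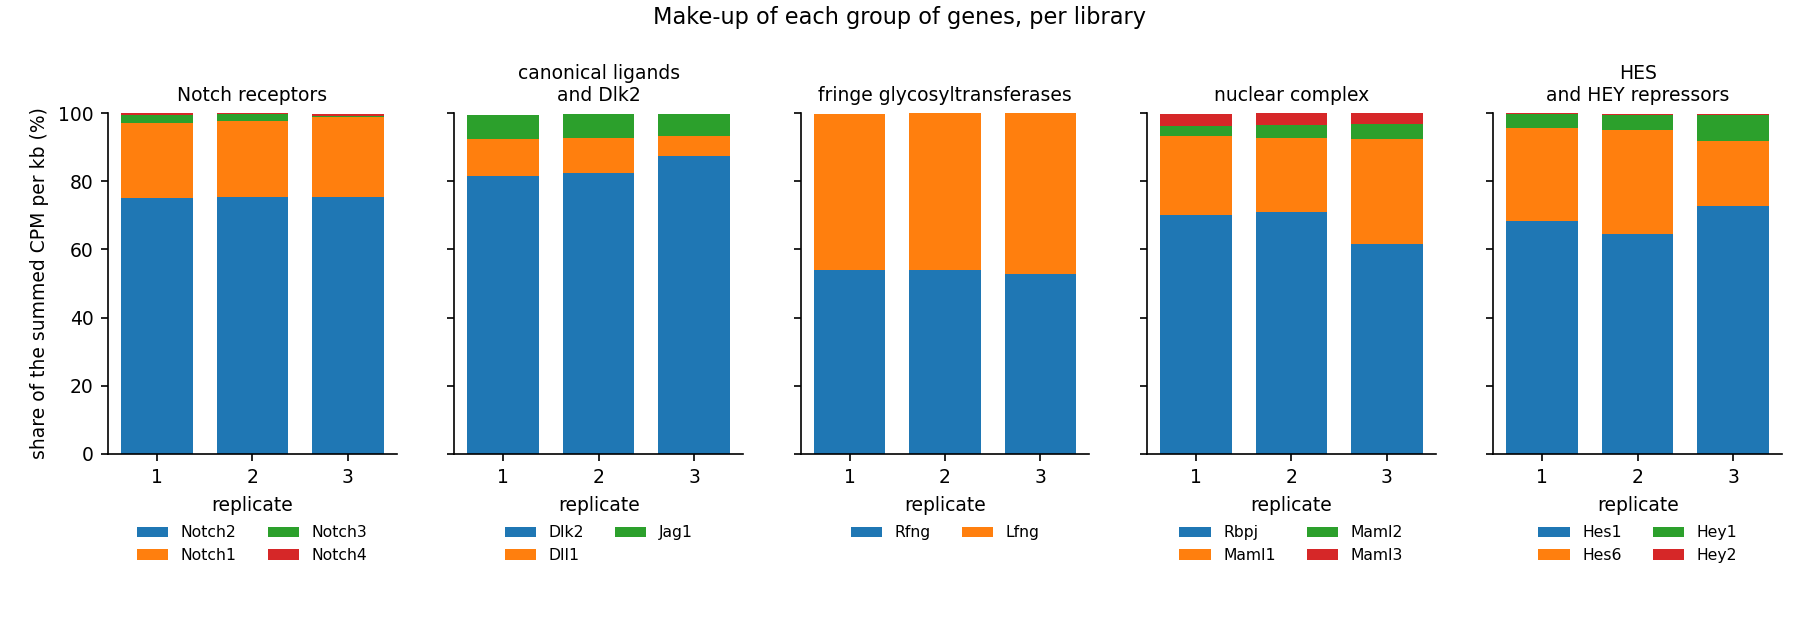
Share of each gene in the summed CPM per kb of its group, in percent, 1 bar per replicate, for receptors, ligands, fringe enzymes, the nuclear complex and the HES and HEY repressors. Genes under 0.3% in every library are not drawn. Notch2 held 75.2% of the receptors, Dlk2 83.8% of the ligand group, and Hes1 68.5% of the repressors.

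Of the Delta and Jagged ligands that activate the receptors, only Dll1 and Jag1 were detected. Dll1 (chromosome 17, 15367354 to 15376872) stood at 12.5, 11.4 and 8.0 CPM, and Jag1 (chromosome 2, 137081456 to 137116644) at 11.0, 10.7 and 11.8 CPM. Per base, Dll1 was above Jag1 in replicates 1 and 2 and slightly below it in replicate 3, and the log2 ratio of 0.37 ± 0.40 was within the spread. An antisense-strand lincRNA covers 20.6% of the exon bases of Dll1. Without a stated strand setting, its reads cannot be told apart from those of Dll1.

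The remaining activating ligands were close to 0. Jag2 stood at 0.50, 0.276 and 0.398 CPM and lay 33.7-fold below Jag1 per base, larger than the spread. Dll4, the ligand of sprouting vessels, had 2 counts in all against 1040 for Dll1, so that Dll1 over Dll4 was 475 per base (exact 95% interval 131 to 3925, counting error only). Dll3, which in other settings acts inside the cell against Notch and is a surface target in human neuroendocrine tumours, had 4 counts in all.

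Dlk2 was the most abundant transcript of the ligand group. It encodes a membrane protein with EGF repeats, a relative of the ligands that lacks their receptor-activating domain and has been described as an inhibitor of Notch. Dlk2 (chromosome 17, 46297421 to 46303271) stood at 46.1, 45.5 and 58.7 CPM, highest in replicate 3. Its level of 23.7 ± 3.54 CPM per kb, percentile 80.5 among detected genes, gave it 83.8 ± 3.15% of the group per base, with Dll1 at 9.12 ± 2.76% and Jag1 at 6.83 ± 0.387%. These shares compare transcripts and say nothing of protein on the cell surface.

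Fringe enzymes add a sugar to the receptors and so tune which ligands they answer. Lfng (lunatic fringe) stood at 17.4, 17.7 and 22.3 CPM and Rfng (radical fringe) at 20.5, 20.7 and 24.8 CPM. Both were highest in replicate 3. Lfng lay 1.16-fold below Rfng per base (range 1.12 to 1.18), a small difference that was still larger than the spread. Mfng (manic fringe) had 4 counts in all against 2149 for Rfng, so that Rfng over Mfng was 613 per base (exact 95% interval 239 to 2251, counting error only) and 406 with the longest transcript.

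All 6 genes for cutting the receptor were detected. The sheddase Adam10 stood at 212, 215 and 176 CPM, and Adam17, a related sheddase with many substrates, at 82.2, 82.9 and 75.1 CPM. Adam17 lay 3.65-fold below Adam10 per base (range 3.41 to 3.79), larger than the spread. Among gamma-secretase subunits, the substrate receptor nicastrin, Ncstn, reached 187, 188 and 155 CPM. Aph1a, a scaffold subunit, stood at 104, 107 and 112 CPM and Psenen, the small subunit PEN-2, at 33.1, 32.5 and 28.4 CPM. Psen2, one of the catalytic presenilins, was lowest at 10.5, 10.9 and 8.89 CPM. Per base, Ncstn (44.5 ± 4.71 CPM per kb) and Adam10 (40.9 ± 4.44) led, at percentiles 90.7 and 89.8 among detected genes, and Psen2 stood at 2.33 ± 0.246. The exons of Ncstn, Adam17, Psenen and Aph1a overlap those of a protein-coding gene on the other strand over 4.35% to 12.9% of their bases.

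Rbpj, the DNA-binding protein through which all 4 receptors act, was abundant, at 473, 478 and 321 CPM. Replicates 1 and 2 were alike and replicate 3 lay at 0.674 times their mean, a difference between libraries beyond counting noise (chi-square test, Benjamini-Hochberg adjusted p = 1.28e-256). Its level was 33.2 ± 7.02 CPM per kb, percentile 86.7 among detected genes. The annotated union of its exons (12750 bases) is much longer than its longest transcript (5485 bases), so this level is a low estimate. Rbpj lies on chromosome 5 at 53466152 to 53657362 and has processed pseudogenes elsewhere in the genome, with which it can share reads.

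The coactivators were led by Maml1. Maml1 stood at 68.3, 63.5 and 69.5 CPM, Maml2 at 10.5, 12.8 and 12.3 CPM and Maml3 at 20.2, 19.7 and 13.0 CPM. Maml2 lay 6.75-fold and Maml3 7.34-fold below Maml1 per base, both larger than the spread. Without length, Maml3 lay 3.87-fold below Maml1. Of the nuclear complex per base, Rbpj held 67.6 ± 5.18%, Maml1 25.3 ± 4.83%, Maml2 3.75 ± 0.784% and Maml3 3.41 ± 0.325%.

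**Figure D3:**
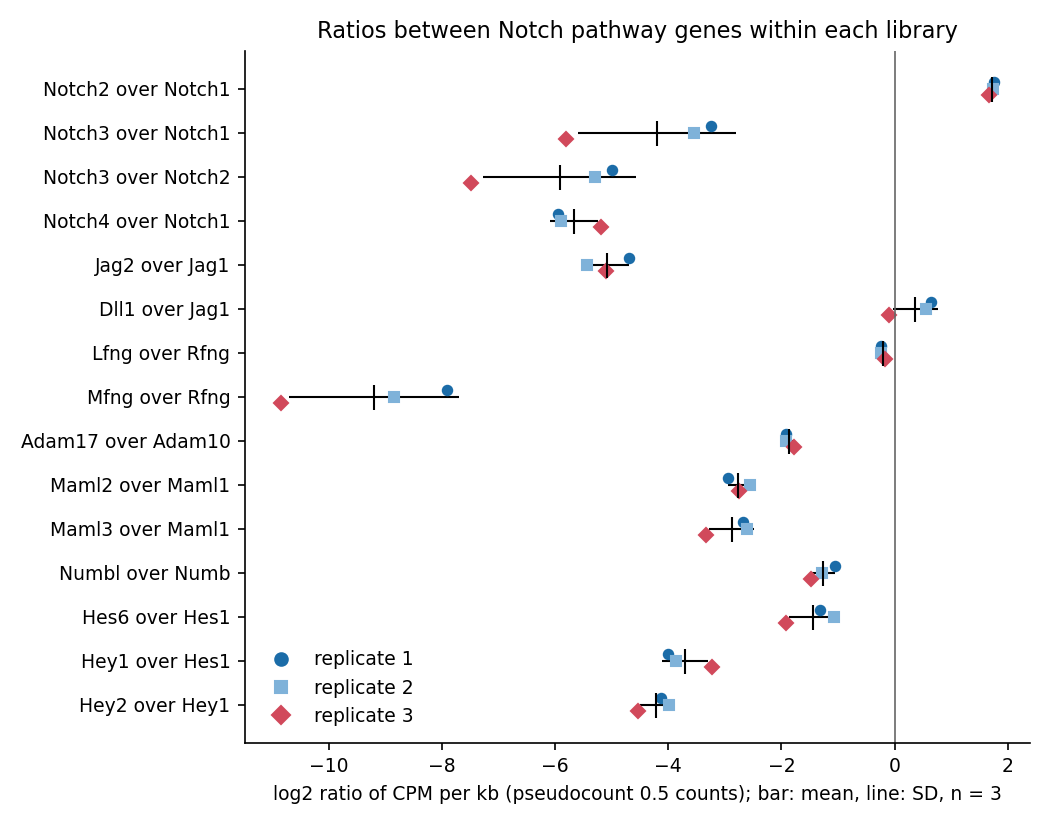
Log2 ratio of CPM per kb, first-named gene over second, in each library for 15 pairs, with the mean (bar) and SD (line, n = 3). In 14 pairs no library crossed 0. Mfng had 0 counts in replicate 3, so its ratio there is set by the pseudocount. Dll1 over Jag1 crossed it at 0.64, 0.56 and -0.10.

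Of the 9 HES and HEY repressors, Hes1, Hes6 and Hey1 were detected. Hes1 (chromosome 16, 30064384 to 30067796), the main Notch target of many tissues, stood at 36.3, 36.6 and 51.7 CPM. Hes6, which in mouse counters HES1 and favours neuronal differentiation, stood at 12.9, 15.4 and 12.1 CPM. Hey1, a target prominent in vessels and heart, was at 3.61, 4.04 and 8.83 CPM. Hes1 and Hey1 were both highest in replicate 3, and Hes6 was lowest there. Per base, Hes6 lay 2.71-fold and Hey1 13.0-fold below Hes1, both larger than the spread, and without length Hey1 lay 8.09-fold below. Hes1 reached 20.4 ± 4.31 CPM per kb, percentile 77.2 among detected genes, and held 68.5 ± 4.09% of the group.

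The other 6 repressors lay below 1 CPM in all libraries. Hey2 stood at 0.278, 0.345 and 0.521 CPM, 18.5-fold below Hey1 per base. Hes3 had 2 counts in all, and so had Hes7, a gene of the somite clock. Hes5, the HES gene typical of neural stem cells, had 0 counts, which allows up to 0.0833, 0.103 and 0.0919 CPM in the 3 libraries. Against 3 counts over the 3 libraries, Hes5 was at least 905-fold lower than Hes1 per base. A transcript annotated on the opposite strand covers 31.8% of the exon bases of Hes5, and reads there may have been set aside as ambiguous. Heyl, a HEY gene of vascular smooth muscle, also had 0 counts and was at least 279-fold lower than Hey1 per base, or at least 178-fold without length. Hes2 had none either. Hes1, Hes6 and Hey1 thus made up nearly all transcripts of the family, as the bars of group make-up show.

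Among the inhibitors, the endocytic adaptors Numb and Numbl were both detected. Numb stood at 40.0, 42.3 and 36.9 CPM and Numbl at 42.6, 38.6 and 29.3 CPM. Per base, Numbl lay 2.41-fold below Numb (range 2.08 to 2.79), larger than the spread, and without length the ratio was 1.09 and within it. Nrarp, a Notch target that feeds back on the nuclear complex, was low at 2.83, 2.48 and 1.59 CPM, percentile 8.2 among detected genes per base. An annotated antisense gene covers 79.4% of its exon bases. Without a stated strand setting, the counts of Nrarp may include reads of that gene or lack reads set aside as ambiguous. Dtx1, a ubiquitin ligase of the Deltex family and a Notch target in lymphocytes, had 0 counts in all libraries.

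In all, 18 pairs of genes were fixed. Of these, 15 had more than 3 counts in all for both genes, and 14 were larger than the spread between replicates. One of the 14 is Mfng over Rfng, in which Mfng had 3, 1 and 0 counts and the mean log2 ratio of -9.20 depends on the pseudocount (-10.18 to -7.04 over those tried). By the exact two-sided sign-flip permutation test, p was 0.25 for each of the 14, or 0.268 after Benjamini-Hochberg adjustment over the 15 pairs, and 0.5 for Dll1 over Jag1. With 3 libraries 0.25 is the smallest p this test allows.

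The libraries differed in the pathway mainly through replicate 3. Of the 27 Notch genes whose count averaged 10 or more, 23 varied between libraries beyond counting noise (chi-square test, adjusted over 12737 genes), where 65.7% of all genes tested did. Between replicates 1 and 2 alone, 0 of 27 were called by the same chi-square test after adjustment, and 4 had an unadjusted p below 0.05. Among the 23, replicate 3 was lowest in 12 and highest in 10. Over all genes called, replicate 3 was lowest in 48.0% and highest in 50.2%, which is 31.5% and 33.0% of all genes tested. The test is sensitive at this depth: Notch2, called with all libraries, differed by 1.05-fold between its highest and lowest value. Notch2 and Notch4 were not called when library totals replaced TMM scaling, and Psen2 was.

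**Figure D4:**
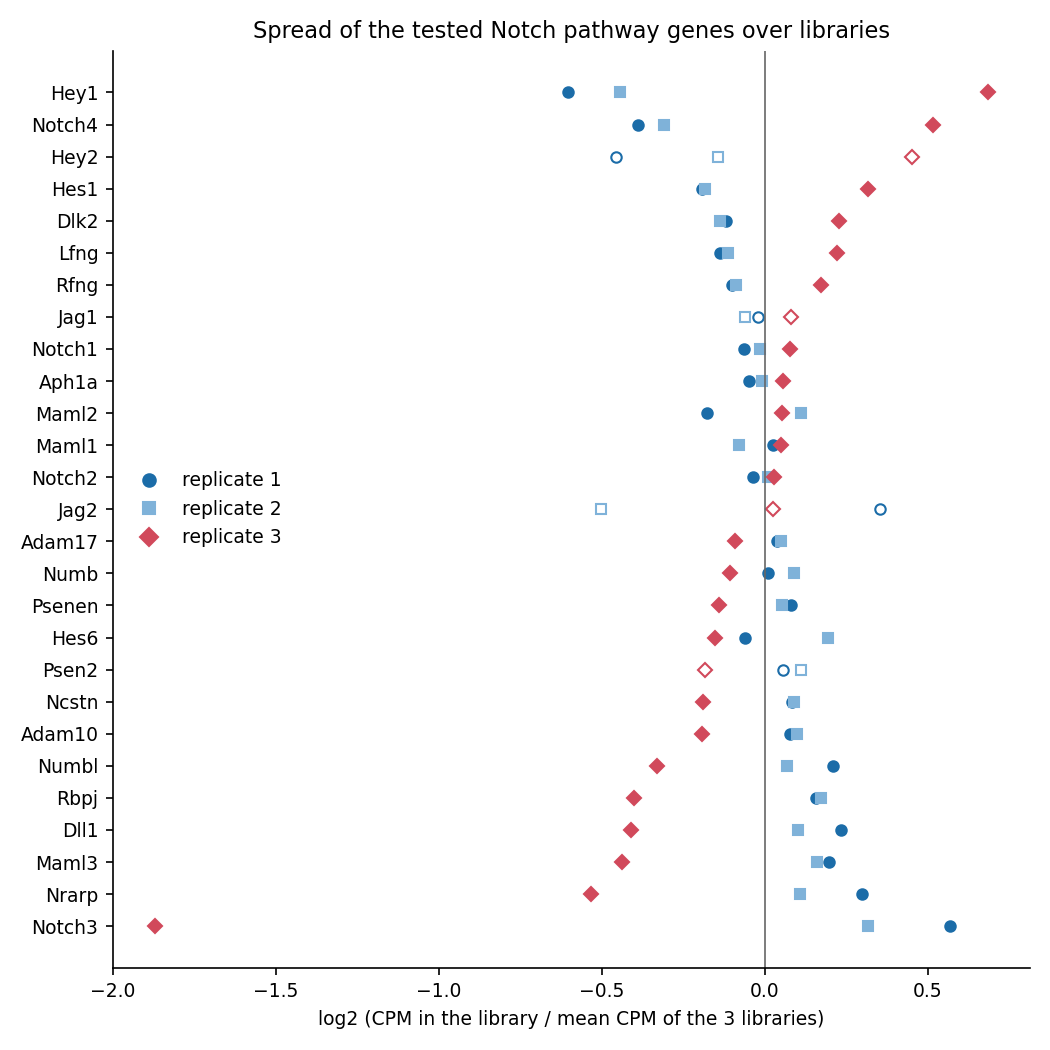
Log2 of CPM in each library over the mean of the 3 libraries, for the 27 Notch genes tested, ordered by replicate 3. Filled points are genes that varied beyond counting noise, and open points are Hey2, Jag1, Jag2 and Psen2, which did not pass. Hey1 is highest in replicate 3 at 8.83 CPM and Notch3 lowest there at 0.674 CPM.

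The sizes set the genes apart more than the calls did. In replicate 3, Hey1 was 2.31 times its mean in replicates 1 and 2 (chi-square adjusted p = 3.79e-22), Notch4 1.83 times, Hes1 1.42 times, Dlk2 1.28 times, Lfng 1.27 times and Rfng 1.2 times. On the other side were Notch3 at 0.200 times (adjusted p = 1.55e-14), Nrarp at 0.600, Maml3 at 0.652, Dll1 at 0.671, Rbpj at 0.674 and Numbl at 0.723 times. Hes1 and Hey1 were thus higher in replicate 3, and Rbpj, Dll1 and Nrarp lower. Within roles, genes went both ways, with Hes6 at 0.858 times, Notch1 at 1.08 times and Maml1 at 1.06 times. Over all genes that varied, 48.0% were lowest and 50.2% highest in replicate 3, so both directions were common. A link between these genes was not tested. The 6 genes for cutting the receptor lay between 0.824 times for Adam10 and 1.06 times for Aph1a, with Ncstn at 0.827 times. Outside the 36 genes, the alternative scaffold subunits of gamma-secretase varied and were lowest in replicate 3. Aph1b stood at 66.8, 68.4 and 42.7 CPM (0.631 times) and Aph1c at 2.19, 3.14 and 0.582 CPM (0.218 times). They are close paralogs that can share reads. Jag1 (1.09 times), Hey2, Jag2 and Psen2 did not pass the test.

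Further genes of the pathway were mostly expressed. Their counts of varying genes stand beside 65.7% over all genes tested. Of all genes that varied, 48.0% were lowest and 50.2% highest in replicate 3 (31.5% and 33.0% of all genes tested). Of 12 genes for receptor glycosylation, processing and ligand endocytosis, 9 were detected, 2 were split between libraries and Neurl1b (0.182 ± 0.0641 CPM) was below, and 8 of 11 tested varied, 6 of them lowest in replicate 3. Those of highest CPM were the convertase Furin (222 ± 4.68), Epn1 (149.9 ± 18.6), Dnm2 (136 ± 2.83) and Epn2 (98.5 ± 11.2). All 10 turnover genes were detected, and those of highest CPM were the ubiquitin ligase Nedd4 (2968, 2991 and 2546 CPM), Aak1 (163 ± 4.28), Sel1l (133 ± 12.9) and Itch (88.6 ± 2.80), and 6 varied. Per base Nedd4 reached 258 CPM per kb, above Ncstn (44.5), the Notch gene with the highest such level. Of the Deltex genes, Dtx2, Dtx3, Dtx3l and Dtx4 were detected at 11.0 to 28.5 CPM on average, whereas Dtx1 was at 0.

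A list of 16 genes held corepressors that RBPJ recruits in the absence of Notch, together with Tle1 to Tle4 and Rbpjl, a relative of Rbpj. Of the 16, 15 were detected, among them Ncor1 (231 ± 5.27 CPM), Ctbp1 (189.5 ± 13.5) and Fhl1 (166 ± 36.2), and Rbpjl had 0 counts. Of the 15, 10 varied, 6 lowest and 4 highest in replicate 3. All 5 coactivator genes were detected, with highest CPM for Ep300 (145 ± 14.0 CPM), Kat2a (129.9 ± 21.6), Snw1 (106 ± 2.01) and Crebbp (57.5 ± 7.95), and 4 varied, 3 of them highest in replicate 3. Of 7 genes for non-canonical ligands, 4 were detected, namely Egfl7 (13.2 ± 0.689 CPM), Nov (9.35 ± 0.941), Mfap2 (9.23 ± 2.30) and Dner (5.16 ± 0.442). Mfap5 had 29 counts in all, Cntn6 had 2 and Cntn1 had 0.

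None of 12 proneural and lineage factors of the class that HES proteins repress was detected, and 9 of them, with Neurog2 and Olig2, had 0 counts. The highest, Ascl2, reached 0.191 ± 0.187 CPM. Of a list of 7 other helix-loop-helix repressors and ID proteins, 6 were detected, and Helt was at 0. Id3 stood at 179, 178 and 226 CPM, Id1 at 107, 105 and 183 CPM, Bhlhe40 at 74.5, 72.9 and 28.4 CPM and Id2 at 12.9, 14.2 and 33.0 CPM. Id1, Id2, Id3 and also Id4 were highest in replicate 3, like Hes1 and Hey1, and Bhlhe40 was lowest there.

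Notch3, Notch4, Dll4 and Heyl are markers of vessels as well as pathway genes, so vessel markers are set beside them. SB28 is a single line, and a detected marker does not show that cells of the named type were present. In these bulk libraries, fewer cells of a type and less RNA per cell cannot be told apart. Of 12 endothelial markers, 5 were detected, and their sum was 503, 496 and 379 CPM, most of it Cdh5 (379.9, 371 and 303 CPM). Of the 6 tested, 4 varied: Cdh5 and Flt1 were lowest in replicate 3, at 0.807 and 0.410 times the mean of the other two, and Kdr and Esam were highest there, at 2.42 and 1.83 times. Pecam1 (6 counts), Erg (1), Cldn5 (0) and Tie1 (0) were at or near 0. Of 10 mural markers, 6 were detected, with sums of 1000.4, 997 and 995 CPM, mostly of Acta2 and Tagln, while Kcnj8 (0 counts), Abcc9 (2) and Des (2) were at or near 0. Of the mural markers, Pdgfrb, Tagln and Rgs5 varied and were lowest in replicate 3, like Notch3, and Rgs5 stood at 6.91, 8.14 and 4.32 CPM. Acta2 also varied and was highest in replicate 3, at 538, 531 and 613 CPM.

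As to the labelled source, brain, markers of brain cell types and lineages were partly absent. Of 8 astrocyte markers, 4 were detected, with Gja1 highest (479 ± 56.4 CPM) and Gfap and Aqp4 at 0 counts. Of 8 markers each, 2 were detected for the oligodendrocyte lineage (Pdgfra and Cspg4), 2 for neurons (Tubb3 and Map2) and 2 for microglia and macrophages (Tmem119 and Cd68). The other 6 microglia and macrophage markers lay below 1 CPM in all libraries. Their total counts were 0 for Aif1, 1 for P2ry12, 4 for Cx3cr1, 6 for Itgam, 20 for Csf1r and 25 for Ptprc. The neuron markers Rbfox3 (0 counts), Gad1 (3) and Slc17a7 (5) were also at or near 0, as were Olig1 (0), Olig2 (0) and Sox10 (1). The sums of all 4 marker lists were lower in replicate 3. They were 610.3, 609 and 488 CPM for the astrocyte list and 106, 107 and 87.7 CPM for the oligodendrocyte lineage list. For the neuron list they were 29.3, 27.9 and 21.9 CPM, and for the microglia and macrophage list 81.4, 74.8 and 45.3 CPM. These are sums over genes and not amounts of cells. Most of the astrocyte sum was Gja1, of the neuron sum Tubb3, and of the microglia sum Tmem119 (75.6, 69.7 and 41.2 CPM). Of the 4 neuron markers that varied, 3 were lowest in replicate 3, and Stmn2 was highest there (0.777, 0.552 and 1.2 CPM). The part of any of these marker lists in the differences of Notch genes between libraries was not tested.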

How the data were processed

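A TruSeq kit and 1 µg of total RNA were used for each library, per the labels' protocols. The deposited files hold raw counts for each gene symbol and 5 summary lines, which made up 15.2% to 17.1% of reads and were left out. Bowtie2 2.2.4, HTSeq and mm10 appear in the submitters' processing notes. Options, annotation and strand setting are not given in the sources used here.

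CPM was computed over counts in genes. Lengths and positions came from GENCODE M21 (GRCm38), which matched 23350 symbols directly and 650 through RefSeq synonyms but not 419, and promoters from RefSeq (GRCm38.p6). The limit for a gene at 0 is 3 counts, and with the Clopper-Pearson intervals it covers counting error only. Log2 ratios used a pseudocount of 0.5 counts. Each gene's counts were compared over the libraries by chi-square against TMM-scaled sizes (minimum mean count 10, adjusted p 0.05). On simulated counts with counting noise only, the test called 0% of 12744 genes, an outcome largely fixed by how the counts were drawn. A further simulation of 12716 genes had changes in 1 library. There the test called 70% of those changed 1.2-fold, 70% of those changed 1.5-fold and 96% of those changed 2-fold. Spread between libraries beyond counting noise was not simulated. Alternatives covered scaling (DESeq2 size factors, totals), thresholds, length, pseudocount and replicates. Tools were R 4.3.3, edgeR 4.0.16, DESeq2 1.42.0, Python 3.11.15, scipy 1.17.1, numpy 2.4.6, matplotlib 3.10.9 and pandas 2.3.3.

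Members, pairs and lists were chosen with earlier results of these data known. All members are named. Of other lists, the 4 detected genes of highest mean CPM are named, and those below 1 CPM in all libraries where fewer than 6. One gene this rule names is not reported here. The Deltex genes, Aph1b and Aph1c, and those named among proneural factors and cell type markers, were chosen after their values were seen. Replicates 1 and 2 were kept as 2 samples, as labelled, and averaging them was an alternative. The 256 genes that differed between them beyond counting noise cannot show whether they were separate cultures, because library preparation can also add such differences.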

Additional observations from a re-analysis of the deposited data

How the results depend on the processing

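Of 170 values under alternatives, 159 were taken as unchanged. Ratios and shares among them kept their direction and their side of the threshold or moved within the spread. Counts of genes had a looser rule, by which 19 varying genes beside 23 were taken as unchanged. The number of detected genes was 21 to 25 over all alternatives, and 23 to 24 when each replicate was left out. The number varying between libraries was 19 to 23 under all alternatives except without replicate 3, where it was 0 (0 to 20 over the libraries left out), so these calls rest on replicate 3; 21 of the 23 genes were shared with library totals and with no filter on low counts. Dll1 over Jag1 reversed without length scaling (log2 -0.10) and was larger than the spread without replicate 3 (0.60; 0.23 to 0.60 over the libraries left out). Numbl over Numb was within the spread without length scaling (-0.12). Without length scaling, shares moved to 70.4% for Notch2, 69.0% for Dlk2, 81.0% for Rbpj and 50.7% for Numb. With the longest transcript they moved to 68.0% for Notch2, 51.8% for Rfng and 82.3% for Rbpj. These changes follow from the lengths used. The bounds for Hes5 and Heyl were 1172-fold and 334-fold with the longest transcript, and 1352-fold and 178-fold without length. Adam17 over Adam10 was -1.28 (log2) with the longest transcript, against -1.87. Depth limits Dll3, Dll4, Mfng, Hes3 and Hes7, which had 2 to 4 counts. No paired analysis was possible because the libraries form 1 group.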
